A study of Mus musculus with 2 samples.

Results

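The alpha and beta tubulin isotypes are the genes that code for the building blocks of microtubules. Described here are 10 genes taken by symbol, 4 of the alpha family (Tuba1a, Tuba1b, Tuba1c and Tuba4a) and 6 of the beta family (Tubb2a, Tubb2b, Tubb3, Tubb4a, Tubb5 and Tubb6), among 18651 genes listed in either library. All 10 had reads in both libraries. RNA sequencing was done on cultured mouse oligodendrocyte lineage cells, with 1 control library, labelled wild type, and 1 Seh1cKO library, labelled mutant, a conditional knockout of the nuclear pore gene Seh1l. Both are of strain C57BL/6 and come from forebrain at 4 to 7 days of age. Per the labels' protocols, precursor cells were panned from cortex on plates with antibodies to GalC and then O4, grown in medium with NT3 at 1 ng/ml, CNTF at 10 ng/ml and both PDGF-AA and bFGF at 20 ng/ml, and differentiated by adding 60 nM triiodothyronine (T3) to medium that lacked NT3, bFGF and PDGF-AA. The libraries were made from immature oligodendrocytes at day 2 of T3. The labels do not give the Cre driver, the number of animals or any pooling.

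Microtubules are hollow tubes of alpha and beta tubulin dimers. Each family is coded by several genes, the isotypes, whose proteins are nearly alike in the globular body and differ mostly in the acidic C-terminal tail, where motors and associated proteins bind and where enzymes add and remove amino acids. Cells also hold the amount of tubulin in balance: when free dimers are in excess, the factor TTC5 recognises the first residues of the tubulin chain as it leaves the ribosome and the messenger RNA is degraded. In oligodendrocytes, microtubules run through the branching processes into the myelin sheath and serve as tracks for the transport of myelin messenger RNAs such as that of Mbp. In humans, mutations of TUBB4A cause leukodystrophy with loss of myelin.

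With 1 library per group, no test of the genotype was possible, and each difference is one between these 2 libraries. Intervals are exact 95% intervals for counting error only and cover neither cultures, animals nor the assignment of reads to near-identical genes. The libraries held 20730114 and 20599590 assigned reads. In CPM, that is reads scaled to a library of 1000000, Seh1l was at 32.1 in control against 18.5 in Seh1cKO, 1.73-fold lower (1.53 to 1.97). The libraries also stood apart in sex-linked genes, with 18 reads of Xist in control and 7025 in Seh1cKO and 1705 and 1 reads of the Y-linked Eif2s3y, so genotype and sex-linked expression cannot be told apart.

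Summed tubulin reads were lower in Seh1cKO for the alpha family and close to equal for the beta family. These are RNA values, and tubulin protein was not measured in them. All 6 alpha tubulin genes with a row summed to 7355 CPM in control against 5268 CPM in Seh1cKO, 1.40-fold lower (1.39 to 1.41). The 8 beta tubulin genes summed to 4750 CPM in control against 4614 CPM in Seh1cKO, 1.03-fold lower (1.02 to 1.04). Of the 10 isotypes, 6 were higher and 4 lower in Seh1cKO, and 2 were past 2-fold: Tubb4a, lower, and Tuba1c, higher. The median log2 ratio was 0.23 over the 10 isotypes and 0.07 over the 13758 genes whose mean reached 1 CPM. A log2 ratio is log2(CPM + 1) in Seh1cKO minus that in control. With that median above 0, most of the 13758 genes were higher too as scaled here, and 35.4% lay below the -0.03 of Tubb2b. The count of 6 higher isotypes is therefore not read as a result about tubulins. Among those 13758 genes, 1.29% were lower and 2.86% higher by 2-fold or more, 4.16% in all. Among the 6491 genes at least as abundant as the lowest of the 10 isotypes, these shares were 1.17% and 0.986%. In bulk RNA, fewer cells of a type and less RNA per cell cannot be told apart, which touches every value here.

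**Figure D1:**
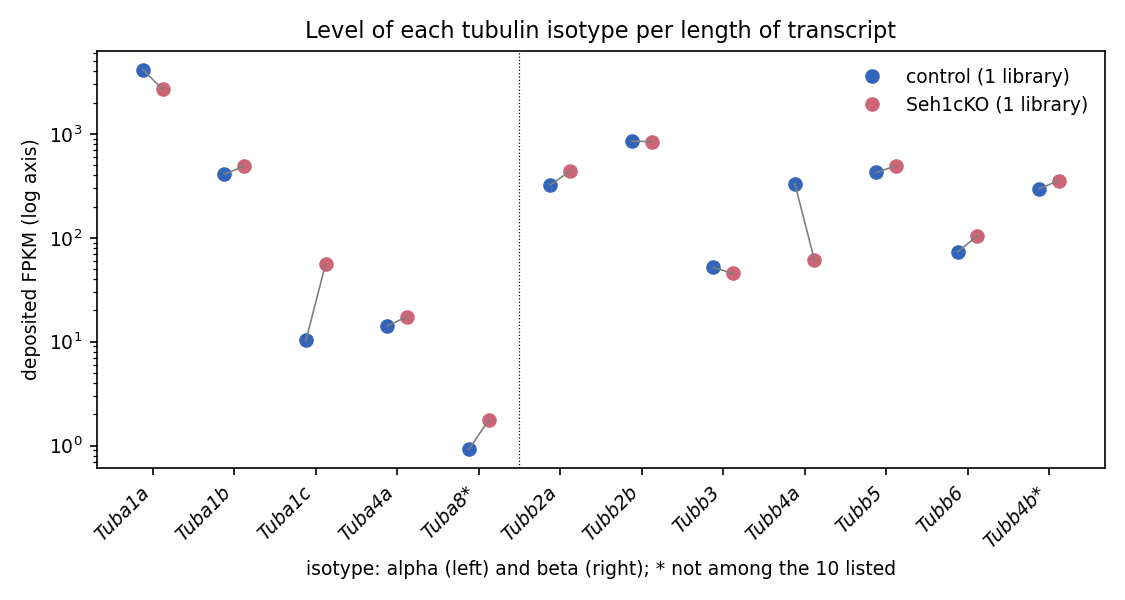
Deposited FPKM, on a log axis, of each measured alpha tubulin gene (left of the dotted line) and beta tubulin gene (right) in the control and Seh1cKO libraries, 1 point per library. Tubb4a is at 329 FPKM in control and 60.8 FPKM in Seh1cKO and Tuba1c at 10.4 and 55.8 FPKM, while Tuba1a stands above all others in both libraries.

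Tuba1a carried most of the alpha tubulin reads. Tuba1a (Entrez 22142, GRCm38 chromosome 15, 98949847 to 98953501) is the main alpha isotype of the developing brain, and in humans its mutations disturb the layering of the cortex. It was at 6586 CPM in control, the most abundant gene of that library by reads (rank 1), and at 4266 CPM in Seh1cKO, rank 5. The ratio was 1.54-fold lower (1.53 to 1.56), and the difference of -2320 CPM was the largest of the 10 in absolute terms. Per length it was at 4157 FPKM in control and 2693 FPKM in Seh1cKO, where FPKM is the deposited read count per kilobase of transcript and per 1000000 reads. All other alpha tubulins together were at 769 CPM in control against 1002 CPM in Seh1cKO, 1.30-fold higher (1.28 to 1.33). As the reads were assigned, the lower alpha total thus lay in Tuba1a. Its coding sequence is 98.3% identical to that of Tuba1b, so reads can be shared between them.

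The other alpha isotypes were all higher in Seh1cKO. Tuba1b (Entrez 22143, chromosome 15, 98931429 to 98934390), a widely expressed isotype, was at 717 CPM in control against 852 CPM in Seh1cKO, 1.19-fold higher (1.16 to 1.21). Tuba1c (Entrez 22146, chromosome 15, 99029891 to 99038105), a further gene of the same cluster that is low in brain, was at 20.5 CPM in control against 110.2 CPM in Seh1cKO. It was 5.38-fold higher (4.85 to 5.98), from 425 and 2271 reads, and its log2 ratio of 2.37 was the 36th highest of all measured genes. As the reads were assigned, the neighbours on chromosome 15 stood far apart, at 1.54-fold lower, 1.19-fold higher and 5.38-fold higher. Their coding sequences are 97.1% to 98.3% identical, and how shared reads were assigned is not known. Tuba4a (Entrez 22145, chromosome 1, 75214972 to 75221261), whose human mutations are linked to motor neuron disease, was at 29.9 CPM in control against 36.7 CPM in Seh1cKO, 1.23-fold higher (1.11 to 1.37). Tuba8, not among the 10, was at 1.35 and 2.57 CPM, and Tubal3 had 1 and 2 reads. Tuba3a and Tuba3b were listed in neither library.

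The ends of the alpha coding sequences set the isotypes apart in 1 respect that the reads can be summed over. They were read from GENCODE release M21 transcripts on GRCm38 that match the deposited RefSeq transcripts. Tuba1a, Tuba1b and Tuba1c end in a tyrosine codon (tac or tat) before the stop, the residue that the detyrosination enzymes Vash1 and Vash2 remove and Ttl puts back. Tuba4a has none, so its protein is made in the form without that tyrosine. Of alpha tubulin reads, 99.6% in control and 99.3% in Seh1cKO came from genes that end in the tyrosine codon. The share without it, from Tuba4a, Tuba8 and Tubal3, was 0.425% in control (0.393% to 0.459%) and 0.748% in Seh1cKO (0.698% to 0.801%).

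Tubb4a stood lowest of the beta isotypes relative to control. Tubb4a (Entrez 22153, chromosome 17, 57080061 to 57087600), the beta tubulin of oligodendrocytes and of some neurons, was at 742 CPM in control against 137 CPM in Seh1cKO. It was 5.42-fold lower (5.20 to 5.64), from 15374 and 2821 reads, and its log2 ratio of -2.43 was the 18th lowest of 13758 genes. Per length it was at 329 FPKM in control and 60.8 FPKM in Seh1cKO. The other 7 beta tubulin genes together were at 4008 CPM in control against 4477 CPM in Seh1cKO, 1.12-fold higher (1.11 to 1.13). The difference was -605 CPM for Tubb4a and 468 CPM for the other beta genes in sum, which left the beta total near equality.

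**Figure D2:**
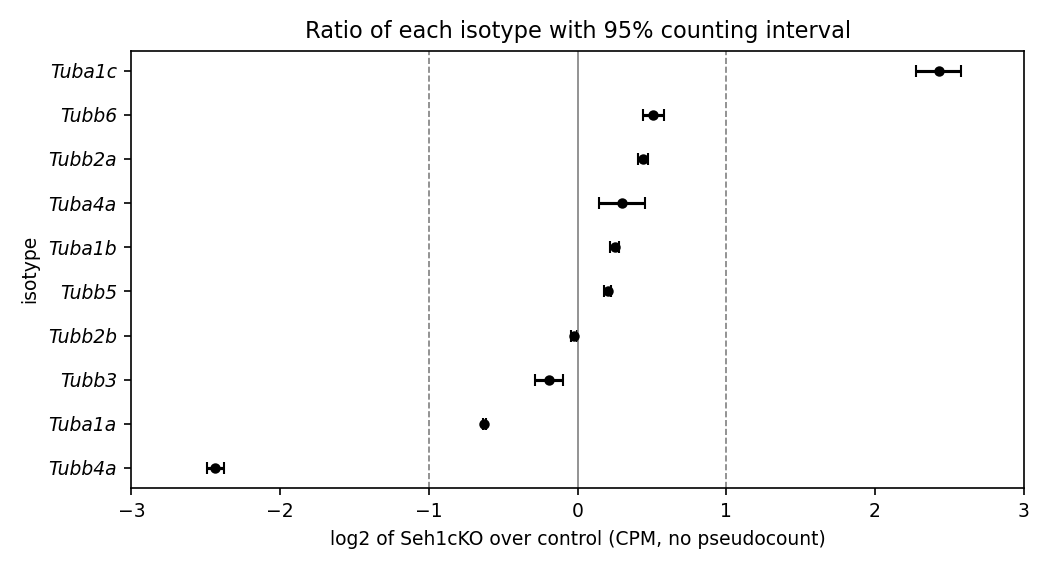
Log2 of the Seh1cKO over control ratio of CPM, without a pseudocount, for the 10 isotypes, with exact 95% counting intervals from 1 library per group. Dashed lines mark 2-fold, which Tuba1c passes upward at 5.38-fold and Tubb4a downward at 5.42-fold, while 8 isotypes lie between.

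The beta coding ends are shown because they code for the tails, the stretch by which beta isotypes are told apart. The last 75 bases are printed with the stop codon, from the same GENCODE transcripts. Capitals mark bases that differ from Tubb4a in a global alignment of the coding sequences, and gaps are not marked.
Tubb4a: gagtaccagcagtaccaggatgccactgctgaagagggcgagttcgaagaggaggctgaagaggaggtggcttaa
Tubb5: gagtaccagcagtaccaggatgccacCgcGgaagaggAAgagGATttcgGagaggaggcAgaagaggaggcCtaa
Tubb2b: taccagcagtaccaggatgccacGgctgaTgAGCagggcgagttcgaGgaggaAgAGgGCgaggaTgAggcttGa
Tubb3: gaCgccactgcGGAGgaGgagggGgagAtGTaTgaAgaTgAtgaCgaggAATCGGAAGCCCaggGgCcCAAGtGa
Of these 75 bases 10 differ in Tubb5, 14 in Tubb2b and 34 in Tubb3. Over the coding sequence without its last 75 bases, Tubb4a was 84.0% identical to Tubb5, 84.4% to Tubb2b and 82.6% to Tubb3, and the ends were 83.3%, 78.2% and 49.4% identical. In bases, the end was thus about as close as the body in Tubb5 and less close in Tubb3. The ends were cut by length, so those of Tubb2b and Tubb3 do not start at the position matching that of Tubb4a. This lowers their identity, and base identity does not measure how alike the protein tails are.

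The starts of the coding sequences are shared by contrast. All 4 alpha members open with codons of the same 4 residues, in 2 spellings, and all 6 beta members with codons of another 4 residues, in 6 spellings. These are the residues that the autoregulation factor TTC5 recognises, and the capitals mark their codons.
Tuba1a: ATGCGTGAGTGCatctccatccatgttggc
Tubb4a: ATGCGGGAAATCgtgcacctgcaagccggt
The 3 genes of the autoregulation list had a median log2 ratio of 0.10 and were all within 2-fold. Ttc5 was at 47.4 CPM in control against 46.5 CPM in Seh1cKO, and the part of autoregulation in the isotype values was not tested.

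Among the other beta isotypes, Tubb2a, Tubb5 and Tubb6 were higher in Seh1cKO and Tubb2b and Tubb3 slightly lower, all within 2-fold. Tubb2b (Entrez 73710, chromosome 13, 34127008 to 34130354), a tubulin of neural progenitors and young neurons whose human mutations cause polymicrogyria, was the most abundant beta isotype. It was at 1646 CPM in control against 1617 CPM in Seh1cKO, a ratio of 0.983 (0.968 to 0.998). Tubb2a (Entrez 22151, chromosome 13, 34074278 to 34078008), its neighbour in the genome, was at 528 CPM in control against 716 CPM in Seh1cKO, 1.36-fold higher (1.32 to 1.39). Reads can be shared between these near-identical genes, and both together were at 2174 CPM in control against 2333 CPM in Seh1cKO, 1.07-fold higher (1.06 to 1.09).

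Tubb5 (Entrez 22154, chromosome 17, 35833920 to 35838301), a widely expressed isotype that neural progenitors need for division, was at 1136 CPM in control against 1308 CPM in Seh1cKO, 1.15-fold higher (1.13 to 1.17). Tubb6 (Entrez 67951, chromosome 18, 67390731 to 67402749), an isotype found mostly outside the brain, was at 133 CPM in control against 189 CPM in Seh1cKO, 1.42-fold higher (1.36 to 1.50). Tubb3 (Entrez 22152, chromosome 8, 123411553 to 123422015), the class III isotype used as a marker of neurons, was at 91.0 CPM in control against 79.6 CPM in Seh1cKO, 1.14-fold lower (1.07 to 1.22). It thus stood on the other side from most neuron markers, which are given with the other cell types. Map2, the most abundant of those markers, also lay slightly below 0, at 279 and 270 CPM. Tubb4b, a widely expressed beta tubulin not among the 10, was at 474 CPM in control against 567 CPM in Seh1cKO, 1.20-fold higher (1.16 to 1.23), and Tubb1, the platelet isotype, had 1 and 0 reads.

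As shares of family reads, Tuba1a was the main alpha isotype in both libraries, at a smaller share in Seh1cKO, and Tubb4a held a much smaller share of the beta family in Seh1cKO. Tuba1a held 89.5% of alpha tubulin reads in control (89.4% to 89.7%) and 81.0% in Seh1cKO (80.7% to 81.2%). Tuba1b held 9.75% in control (9.61% to 9.90%) and 16.2% in Seh1cKO (16.0% to 16.4%). Tuba1c held 0.279% in control (0.253% to 0.306%) and 2.09% in Seh1cKO (2.01% to 2.18%), and Tuba4a 0.406% and 0.698%. Tuba1c thus passed Tuba4a in Seh1cKO, though it was the lower of both in control.

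In the beta family, Tubb4a held 15.6% of reads in control (15.4% to 15.8%) and 2.97% in Seh1cKO (2.86% to 3.08%). Tubb2b, the most abundant, held nearly the same share in both libraries, 34.7% in control and 35.1% in Seh1cKO. Tubb5 held 23.9% in control and 28.3% in Seh1cKO, Tubb2a 11.1% and 15.5%, and Tubb6 2.79% and 4.09%. Tubb3 held 1.92% in control (1.83% to 2.00%) and 1.73% in Seh1cKO (1.64% to 1.81%), so the counting intervals just miss each other. Tubb4b held 9.99% and 12.3%. Per length, as shares of summed FPKM, Tubb4a held 14.0% in control and 2.60% in Seh1cKO, and Tuba1a held 90.5% and 82.7% of the alpha family.

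**Figure D3:**
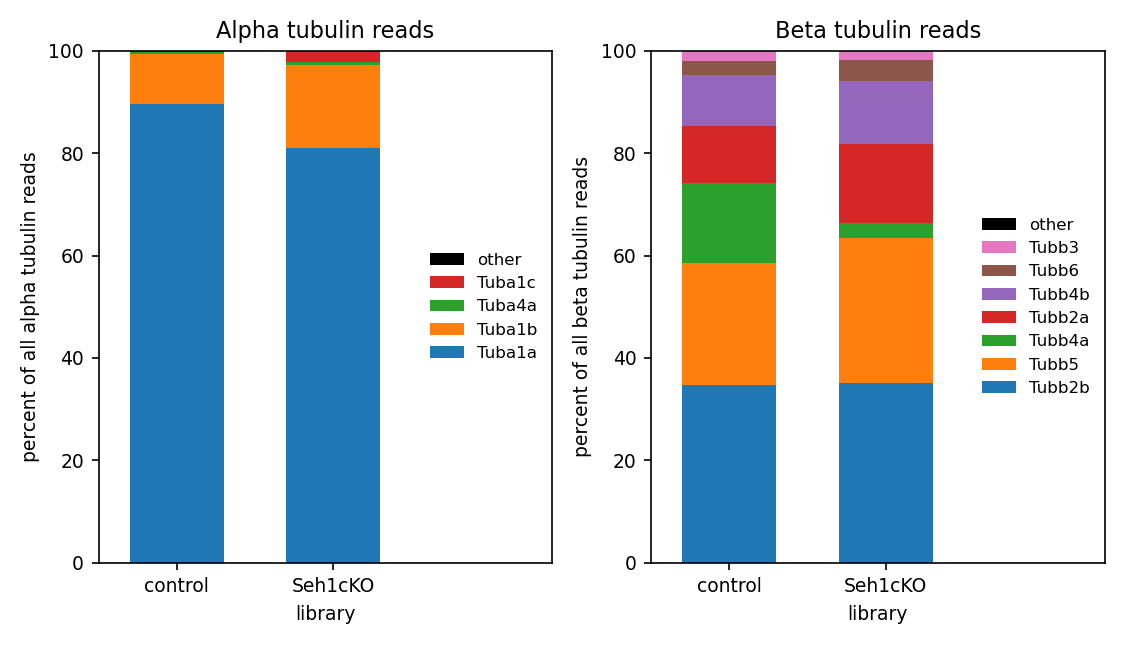
Share of all alpha tubulin reads (left) and all beta tubulin reads (right) held by each isotype, in percent, with 1 bar per library. From control to Seh1cKO, Tuba1a goes from 89.5% to 81.0% of alpha reads and Tubb4a from 15.6% to 2.97% of beta reads, while Tubb2b is at 34.7% and 35.1%.

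The balance of the families differed between the libraries. Alpha over beta tubulin reads was 1.55 in control (1.54 to 1.56) and 1.14 in Seh1cKO (1.13 to 1.15). Per length the ratio of summed FPKM was 1.95 in control and 1.39 in Seh1cKO. Alpha and beta tubulins together made up 1.21% of the reads in control and 0.988% in Seh1cKO.

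Ordered by FPKM, Tuba1a, Tubb2b, Tubb5 and Tuba1b were the first 4 of the 10 isotypes in both libraries. In control Tubb4a came 5th at 329 FPKM and Tubb2a 6th at 323 FPKM, with counting intervals that overlapped (324 to 335 and 317 to 330). In Seh1cKO, Tubb4a came 7th at 60.8 FPKM, below Tubb2a at 439 and Tubb6 at 105 FPKM. Tubb5 at 492 FPKM and Tuba1b at 489 FPKM overlapped there. Tuba1c was last in control at 10.4 FPKM and 8th in Seh1cKO at 55.8 FPKM, above Tubb3 at 45.4 and Tuba4a at 17.4 FPKM. Tubb2b was 2.60 times Tubb4a in control and 13.8 times in Seh1cKO on the FPKM scale, and Tuba1a was 10.1 times Tuba1b in control and 5.51 times in Seh1cKO.

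The genes closest to the extreme isotypes were sought among genes of similar abundance, within 2-fold in mean CPM, and this likeness rests on 2 libraries. For Tubb4a, the nearest log2 ratios among 722 genes were those of Sirt2 at -1.82, Gpr17 at -1.76 and Cnp at -1.58. Sirt2 is a tubulin deacetylase of oligodendrocytes, Gpr17 a receptor of cells about to differentiate and Cnp an enzyme of myelin that binds tubulin. Mbp, a myelin gene in the same range of abundance, was lower than Tubb4a, with a log2 ratio of -3.28. For Tuba1c, the nearest among 4818 genes were the collagen gene Col3a1 at 2.25, the calcium binding protein gene S100a6 at 2.09 and the secreted protein gene Spp1 at 2.66. The authors' deposited table, which lists 896 genes, holds 2 of the 10 isotypes. For scale, 18651 genes were listed in either library. Every gene the authors kept differs by 2-fold or more, so isotypes within 2-fold could not appear there. Tuba1c has a log2 fold change of 2.43 in it and Tubb4a one of -2.44. These are log2 ratios of FPKM values from 1 library each. They come from the same 2 libraries as the values above, so they are not separate evidence for these isotypes.

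How firmly reads can be given to a single isotype differs between the genes. For Tubb3, Tubb4a, Tubb5 and Tubb6, 100% of the 100-base windows of the transcript occur in no GENCODE transcript of another gene, so a read of that length points to 1 gene. For Tuba1a the share of such windows was 34.2%, for Tuba1b 27.0% and for Tuba1c 46.6%. With windows of 50 bases, these genes stood at 24.5%, 16.9% and 39.0%. Their coding sequences are 98.3% (Tuba1a and Tuba1b), 97.1% (Tuba1a and Tuba1c) and 97.9% (Tuba1b and Tuba1c) identical. Tubb2a and Tubb2b, at 96.5% identity, had 63.1% and 72.3% in 100-base windows, and Tubb4b, not among the 10, had 69.4%. In 50-base windows they had 50.4%, 60.7% and 44.5%. The GENCODE transcript of Tuba4a had 53.3% in 100-base windows, though 100% of those in its coding sequence were its own. The deposited expected counts of all 10 isotypes were not whole numbers in either library. Over all genes listed, this held for 29.3% in control and 29.5% in Seh1cKO. It held for Tubb3, Tubb4a, Tubb5 and Tubb6 too, for a reason not known here. By their shared windows, the values of Tuba1a, Tuba1b, Tuba1c, Tuba4a, Tubb2a, Tubb2b and Tubb4b are uncertain, the 5.38-fold of Tuba1c included. The sources used here do not give the read length or the handling of shared reads.

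**Figure D4:**
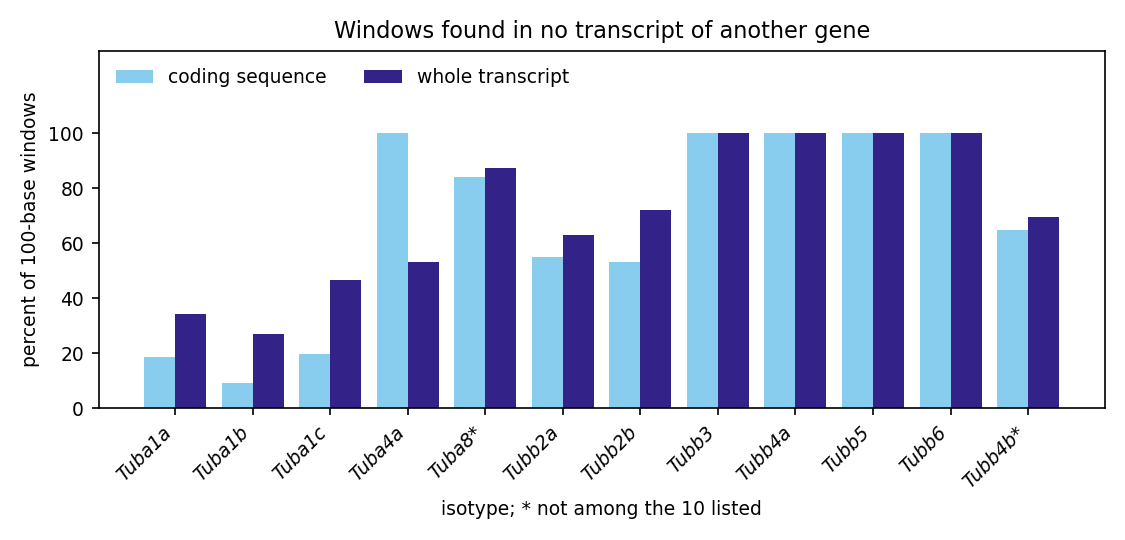
Percent of 100-base windows of the coding sequence (light) and the whole transcript (dark) that occur in no GENCODE M21 transcript of another gene, for each measured isotype. Tubb3, Tubb4a, Tubb5 and Tubb6 stand at 100%, while the whole transcripts of Tuba1a, Tuba1b and Tuba1c lie at 34.2%, 27.0% and 46.6%.

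Other parts of the microtubule system differed less, with Sirt2 as the exception among the modifying enzymes. Of 20 measured genes that add or remove tubulin modifications, 1 was past 2-fold downward, none upward and 19 lay within, with a median log2 ratio of 0.11. Sirt2, which removes acetyl groups from alpha tubulin and is abundant in myelin, was at 834 CPM in control against 236 CPM in Seh1cKO, with a ratio of 0.283 (0.274 to 0.292). Atat1, which adds that acetyl group, was at 94.8 CPM in control against 63.2 CPM in Seh1cKO, a ratio of 0.666 (0.621 to 0.715). The other deacetylase, Hdac6, was near equal at 63.2 and 67.0 CPM. Vash1, which removes the last tyrosine of alpha tubulin, was at 431 CPM in control against 343 CPM in Seh1cKO, a ratio of 0.797 (0.772 to 0.822), and Ttl, which restores it, at 33.5 and 38.7 CPM. The less abundant Vash2, which also removes the tyrosine, went the other way from Vash1. It was at 8.59 CPM in control against 13.5 CPM in Seh1cKO, a ratio of 1.58 (1.30 to 1.91). The polyglycine ligase gene Ttll8, at 2.89 and 5.10 CPM, and the glutamate ligase gene Ttll4, at 4.58 and 7.57 CPM, were low in both libraries.

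Genes for proteins that fold tubulin were near equal. The 7 folding cofactors had log2 ratios between -0.16 and 0.09, with a median of -0.03 and none past 2-fold. The 13 genes of the CCT chaperonin and prefoldin, which fold new tubulin chains, lay between -0.07 and 0.21, with a median of 0.11. The gamma, delta and epsilon tubulins were all within 2-fold. Tubg1, which nucleates microtubules at the centrosome, was at 82.8 CPM in control against 84.2 CPM in Seh1cKO, and Tubg2 at 2.07 and 3.69 CPM. The 4 genes had a median of 0.03 as scaled here and of -0.05 after scaling by the median of ratios, so no direction is given. The gamma-tubulin ring complex (8 genes, median 0.12) and augmin (8 genes, median 0.23), which start microtubules in the spindle, had no gene past 2-fold. The highest of these were Haus4, at 5.98 and 11.7 CPM, and Nedd1, at 10.2 and 16.5 CPM.

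Genes of structural microtubule-associated proteins lay mostly on the lower side, with 11 of 14 below 0 and none past 2-fold. Their median log2 ratio was -0.13, against 0.07 over all measured genes. Map1b, which stabilises microtubules in growing processes, was at 316 CPM in control against 213 CPM in Seh1cKO, a ratio of 0.675 (0.650 to 0.702). Tppp, a microtubule bundling protein of oligodendrocytes, was at 8.30 CPM in control against 5.73 CPM in Seh1cKO, a ratio of 0.690 (0.541 to 0.878), and its relative Tppp3 at 40.8 and 31.0 CPM. Among the stathmins, which bind free tubulin dimers, 1 of 4 was past 2-fold: Stmn2, a neuronal stathmin, was at 28.7 CPM in control against 58.7 CPM in Seh1cKO, a ratio of 2.05 (1.86 to 2.27). The 10 plus-end proteins had a median of -0.09, with Mapre2 at 151 and 112 CPM. The 7 severing enzymes had a median of 0.01 that turned to -0.07 with the median of ratios, so they are given without a direction.

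**Figure D5:**
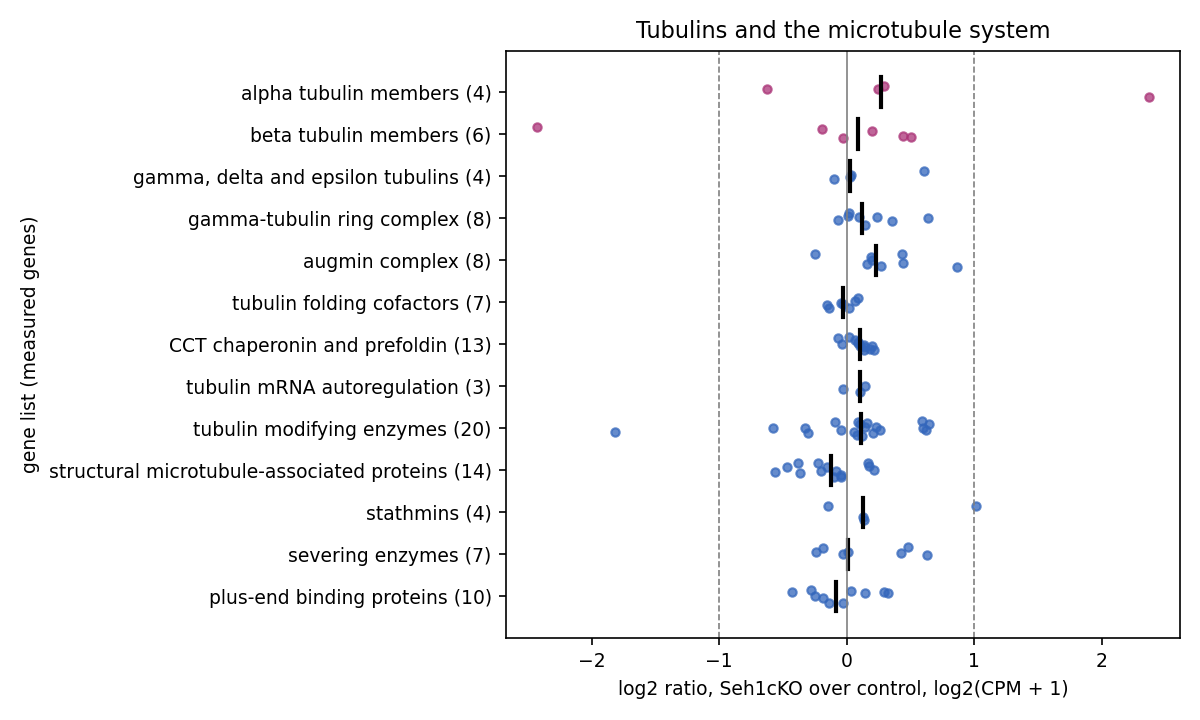
Log2 ratio, Seh1cKO over control on the log2(CPM + 1) scale, of each measured gene in 13 lists of tubulins and the microtubule system, with 1 point per gene and a bar at the list median. Tubb4a at -2.43, Tuba1c at 2.37, Sirt2 at -1.82 and Stmn2 at 1.01 are the points past the dashed lines at 2-fold.

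Markers of maturation and of other cells differed between the same libraries, and their part in the tubulin values was not tested. The myelin and mature oligodendrocyte genes summed to 2950 CPM in control against 620.4 CPM in Seh1cKO, with 10 of 10 measured genes at least 2-fold lower and a median log2 ratio of -2.08. The premyelinating genes summed to 3464 and 1188 CPM, with 8 of 10 at least 2-fold lower. The fibroblast and mural genes summed to 422 CPM in control against 1118 CPM in Seh1cKO, with 7 of 12 at least 2-fold higher, none of them at 0. The epithelial and mesothelial genes summed to 11.1 and 204 CPM, with 6 of 7 measured genes at least 2-fold higher and Upk3b at 0 in Seh1cKO. Of the 10 isotypes, 6 were higher in Seh1cKO, as were most measured genes. The 6 include Tuba1c and Tubb6, which are low in brain, at log2 ratios of 2.37 and 0.51, and also Tubb2a at 0.44. A link of any isotype to these markers was not tested.

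Astrocyte genes were abundant in both libraries, summing to 12035 CPM in control and 7803 CPM in Seh1cKO, with 2 of 10 measured genes at least 2-fold lower and 8 within. Of the 10, 8 lay below 0 and 2 above, with a median log2 ratio of -0.30. Gfap alone was at 5200 and 2214 CPM, the larger part of the difference in the sum. The 2 genes above 0 were Aldh1l1 and Gja1, with log2 ratios of 0.22 and 0.49. The neuron list, which holds Tubb3, Map2 and Stmn2, summed to 443 and 497 CPM, with 10 of 12 genes above 0 and a median of 0.70. The 2 below 0 were Tubb3 at -0.19 and Map2 at -0.05, the most abundant of the list in both libraries. Cell division genes summed to 546 and 859 CPM, with 12 of 12 above 0, 1 past 2-fold and a median of 0.63. Beside these counts, most measured genes lay above 0 as scaled here, with a median of 0.07. Tuba1b and Tubb5, both widely expressed, had log2 ratios of 0.25 and 0.20, and a link to cell division was not tested. Precursor genes summed to 1373 and 1171 CPM, with 1 of 10 past 2-fold upward, 2 downward and a median of -0.40. They were mixed in direction, with 4 above 0, among them Pdgfra at 0.82 and Cspg4 at 0.58, and 6 below. Endothelial genes (27.3 and 57.8 CPM, Cldn5 at 0 in control), microglia genes (9.26 and 18.5 CPM) and ciliated ependymal genes (108 and 135 CPM) were low, and their part was not tested either.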

How the data were processed

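The authors deposited a gene table per library with an expected count, a transcript length and an FPKM value; genes without reads are left out of a table and were set to 0. Per the submitters' processing notes the tools were StringTie and HTSeq, on mm10. The sources used here do not give the aligner, the strand setting or the handling of shared reads. The authors' deposited comparison table holds log2 fold changes and p-values whose test is not given. Genes were matched by Entrez identifier, and coordinates come from the RefSeq gene table of GRCm38.p6. Expected counts were rounded and scaled to 1000000 reads per library (CPM). A pseudocount of 1, a floor of 1 CPM in the mean and a threshold of 2-fold were used. Ratios and shares have exact 95% Clopper-Pearson intervals; reads carry no molecular identifiers here, so these may be too narrow. Level intervals are exact Poisson. Shares use all alpha or beta tubulin genes with a row. Scaling factors came from edgeR 4.0.16 and DESeq2 1.42.0, used for alternatives only. The 10 isotypes and the 26 gene lists were chosen with earlier results of these data known. Named genes are the isotypes, up to 3 of each microtubule list by size of ratio and the nearest genes; others in the text, such as Hdac6, Atat1, Ttl, Vash1 and Tubg1, were named for their role after values were seen. Map2, Stmn2, Tubb3 and Cspg4 stand in 2 lists. Some alpha tubulin coding ends and 1 further gene are not reported here.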

Additional observations from a re-analysis of the deposited data

How the results depend on the processing

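Without replicates no library could be left out. No paired analysis was possible because each group has 1 library. The counts of isotypes past 2-fold, 1 lower and 1 higher, did not change under pseudocounts of 0.1 and 5, scaling by the median of ratios, upper quartile or TMM, unrounded counts or FPKM, and none of the 10 isotypes changed direction in these settings. Log2 ratios ranged from -2.51 to -2.40 for Tubb4a and from 2.18 to 2.42 for Tuba1c. The log2 ratio of all alpha tubulins, -0.48 as reported, was -0.56 with the median of ratios, -0.53 with the upper quartile, -0.57 with TMM and -0.50 with FPKM. That of all beta tubulins, -0.04 as reported, was -0.12, -0.089, -0.13 and -0.013 in the same order. The share of Tubb4a was 14.0% in control and 2.60% in Seh1cKO by FPKM, and 17.3% and 3.38% of the listed beta isotypes alone. Over all genes, 394 higher and 178 lower became 637 and 241 with a pseudocount of 0.1, 141 and 116 with 5, and 204 and 148 by FPKM.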
